A study of Mus musculus with 9 samples.

Results

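Hepatokines are hormones that hepatocytes secrete into blood, and the RNA of 9 genes that encode such hormones was followed in the livers of 9 mice: Fgf21, Gdf15, Angptl4, Angptl8, Inhbe, Lect2, Fetub, Ahsg and Selenop. The members were chosen by name, as secreted liver hormones, out of 17846 genes in the table, and all 9 had enough reads to be tested. The study asked how treadmill training acts on nonalcoholic steatohepatitis (NASH), a fatty and inflamed state of the liver, and each mouse gave 1 library of liver mRNA. The mice were wild-type males of the strain given as C57/BL (C57BL/6 in the study's methods), and per the study's methods they were fasted overnight before the livers were taken. The Control group (3 mice) ate normal chow and stayed sedentary. The NASH group (3 mice) ate the Ath diet, an atherogenic food with added cholesterol and cholate, for 20 weeks and stayed sedentary. The NASH+Exercise group (3 mice) ate the same food and ran on a treadmill for 8 weeks, starting after 12 weeks on it, at 20 weeks of age. How the sequenced mice were picked from each group is not given in the sources used here.

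These hormones tell other organs about the state of the liver. Fgf21, made in fasting under the nuclear receptor PPAR alpha and in amino acid shortage or protein folding stress under the transcription factor ATF4, acts through an FGF receptor with the co-receptor beta-Klotho. Angptl4 and Angptl8 restrain lipoprotein lipase, the enzyme that releases fatty acids from circulating triglyceride, and the activin subunit encoded by Inhbe restrains lipolysis in fat. Gdf15 is a stress hormone that lowers food intake through the brain, and the remaining members are abundant plasma proteins (the fetuins of Ahsg and Fetub, the selenium carrier of Selenop) or a chemotactic hormone (Lect2).

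Each library held between 20086004 and 22495449 estimated counts over 15440 to 16371 genes. Levels are given as CPM, counts scaled to a fixed library total, after TMM normalization, which sets most genes level between libraries. The word changed is kept for an adjusted p under 0.05 by the quasi-likelihood test of edgeR, after Benjamini-Hochberg adjustment over 13619 genes. The p-values reflect the spread between mice within groups, estimated over all 9 mice, so mice outside a comparison enter them as well. An exact permutation test of 3 mice against 3 cannot go below 0.1, so it was not used for calls. As a check of the tissue, 12 hepatocyte markers such as albumin summed to 114904 CPM or more in every library, whereas 12 macrophage markers summed to 103 to 190 CPM in Control mice, 1125 to 1238 CPM in NASH mice and 846 to 996 CPM in trained mice. The hepatocyte sum was 160608 to 195290 CPM in Control mice, 114904 to 154120 CPM in NASH mice and 145682 to 164288 CPM in trained mice. In whole liver, fewer cells of a type and less RNA per cell cannot be told apart.

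In NASH against Control, 4 of the 9 hepatokine genes changed, where 35.6% of all tested genes did. Fgf21, Angptl4 and Inhbe fell (3 of 9, where 14.4% of all genes fell) and Gdf15 rose (1 of 9, where 21.2% of all genes rose). In NASH+Exercise against NASH only Fgf21 changed among the 9, and it fell further, in a comparison where 0.162% of all genes changed. In NASH+Exercise against Control, 3 members changed, where 25.1% of all genes did, and all 3 (Fgf21, Angptl4 and Inhbe) were lower, where 9.58% of all genes were. The members' median log2 fold change was −0.20, 0.06 and −0.04 in these comparisons, beside 0.01, −0.03 and 0.00 for all genes. Neighbouring comparisons share a group of mice, so their values are not independent.

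**Figure D1:**
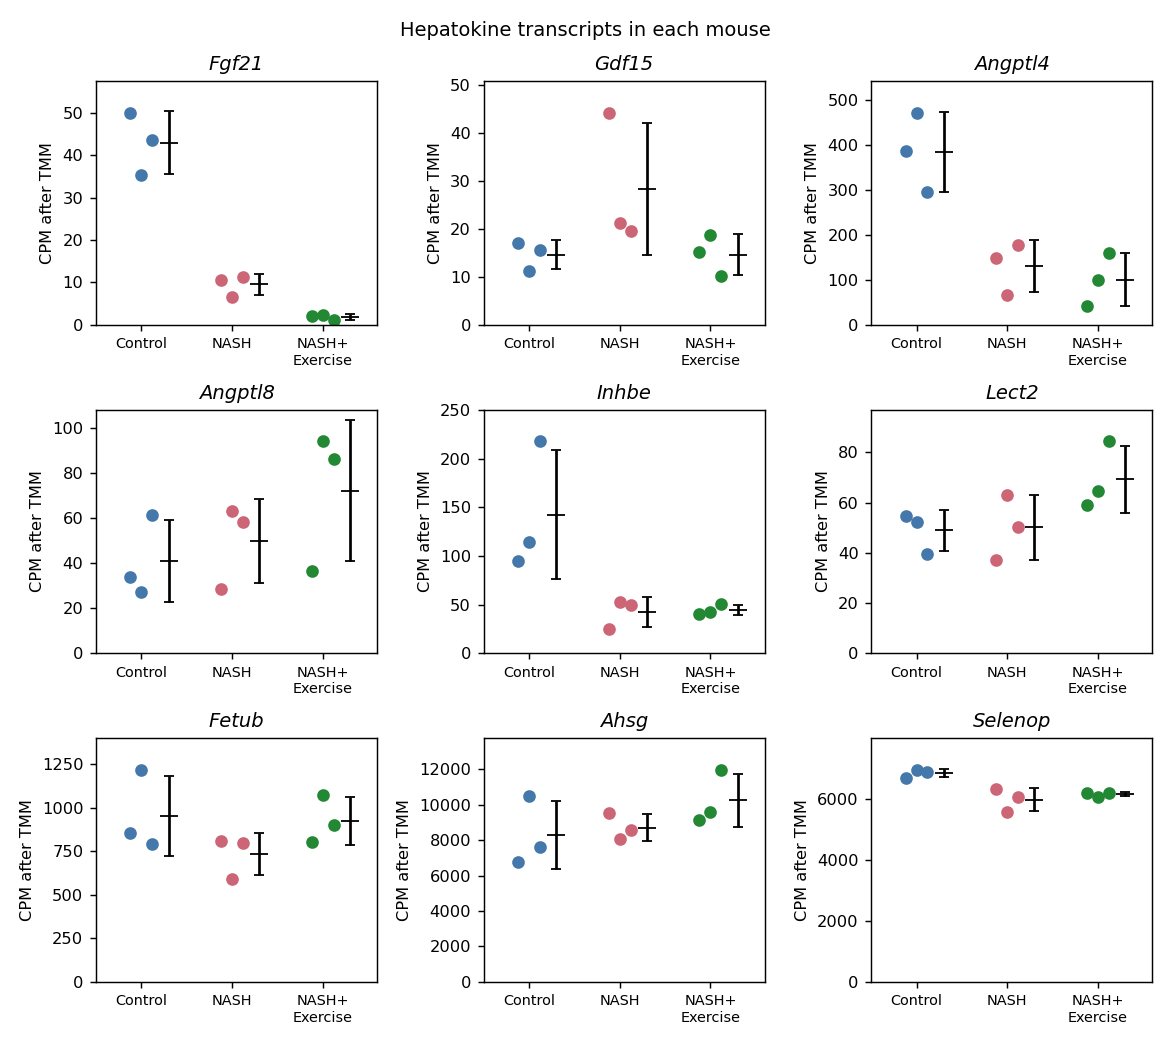
CPM after TMM of the 9 hepatokine genes (1 panel each, axes from 0), with a point for each of 3 mice in Control (blue), NASH (red) and NASH+Exercise (green), and the mean with its SD beside them. Fgf21 steps down from 35.3 to 50.02 CPM in Control through 6.67 to 11.2 CPM in NASH to 1.02 to 2.31 CPM in NASH+Exercise, with no overlap between groups.

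Promoter sequence is shown for the 3 members whose window held the letters TGATGNAA, the composite element that C/EBP and ATF factors such as ATF4 are known to bind. RefSeq start sites of GRCm38.p6 gave a window of 250 bases before to 50 bases after the start for 8 of the 9 members. The 250 upstream bases are printed 5′ to 3′ in the direction of the gene, with matches in capitals: the composite element on either strand (TTGCATCA is its other strand), and in Fgf21 also the E-box CACGTG and the TATA box TATAAA.
Fgf21 (chr7:45615491-45615740, minus strand): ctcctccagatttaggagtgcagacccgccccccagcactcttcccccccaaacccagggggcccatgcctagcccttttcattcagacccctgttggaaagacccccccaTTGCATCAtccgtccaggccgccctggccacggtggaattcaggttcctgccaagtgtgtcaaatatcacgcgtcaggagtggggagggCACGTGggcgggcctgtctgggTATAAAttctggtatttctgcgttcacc
Inhbe (chr10:127351849-127352098, minus strand): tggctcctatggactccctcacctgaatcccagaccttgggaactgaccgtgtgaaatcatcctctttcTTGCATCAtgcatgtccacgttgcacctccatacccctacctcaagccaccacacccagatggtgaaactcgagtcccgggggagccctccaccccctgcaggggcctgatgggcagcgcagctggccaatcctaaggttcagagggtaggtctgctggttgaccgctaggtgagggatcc
Angptl8 (chr9:21835260-21835509, plus strand): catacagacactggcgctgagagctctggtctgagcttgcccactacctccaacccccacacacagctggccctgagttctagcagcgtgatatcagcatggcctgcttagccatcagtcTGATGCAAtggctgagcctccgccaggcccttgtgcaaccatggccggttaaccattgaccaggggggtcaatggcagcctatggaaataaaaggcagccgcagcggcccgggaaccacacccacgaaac

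The element lay at −139 to −132 from the start site of Fgf21, at −181 to −174 of Inhbe and at −130 to −123 of Angptl8, where it reads in the direction of the gene. Searched on both strands, TGATGNAA was found in 3.97% of 32851 promoter windows of this length. CACGTG, held by Fgf21 and Gdf15, was found in 7.15% of windows, and TATAAA, held by Fgf21, Fetub and Selenop, in 13.6%. The TATAAA of Selenop lay in the window chr15:3270727-3271026, whose start site is inside the gene (chr15:3270767-3280510). The cAMP response element TGACGTCA (1.79% of windows) had no match in the windows of the 8 members. The nuclear receptor half-site AGGTCA (16.3% of windows) matched in a window of Gdf15, chr8:70632407-70632706. That is not the Gdf15 window with CACGTG, which was chr8:70632046-70632345. Of the genes with the composite element, Fgf21 and Inhbe fell in NASH, and Angptl8 did not pass the test. A match describes letters in a window and is not evidence of a bound site.

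Fgf21 (chr7:45613890-45615490, minus strand, GRCm38.p6) overlaps no other annotated gene. Its level was 50.02, 35.3 and 43.7 CPM in Control replicates 3, 4 and 29. It was 10.7, 6.67 and 11.2 CPM in NASH replicates 5, 19 and 20, and 1.96, 2.31 and 1.02 CPM in NASH+Exercise replicates 8, 18 and 22. Every NASH mouse lay below every Control mouse, and every trained mouse below every NASH mouse. The lowest library still held 21 counts of Fgf21, so the gene remained detectable throughout.

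From Control to NASH, Fgf21 fell from 43.0 ± 7.41 to 9.53 ± 2.48 CPM (SD, n = 3 each), a log2 fold change of −2.17 (SE 0.26, 95% interval −2.75 to −1.60, edgeR adjusted p 0.000149). From NASH to NASH+Exercise it fell to 1.77 ± 0.667 CPM, a log2 fold change of −2.42 (SE 0.29, 95% interval −3.07 to −1.77, edgeR adjusted p 0.0405). The step with training was thus about as large on the log2 scale as the step with the diet, with intervals that overlap. Between the ends, NASH+Exercise was 24.2-fold below Control (log2 fold change −4.59, SE 0.30, edgeR adjusted p 1.15e-05). The fall with the diet and the fall from Control to NASH+Exercise kept an adjusted p of at most 0.00276 and 0.000165 in every alternative run. The call for training was lost in 5 of the 9 fits that left out a mouse. Its adjusted p was above 0.05 without NASH replicate 5 (0.134), NASH replicate 20 (0.104), NASH+Exercise replicate 18 (0.0663), NASH+Exercise replicate 22 (0.0625) or Control replicate 3 (0.0518), while the log2 fold change stayed between −2.73 and −2.15 over all settings.

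**Figure D2:**
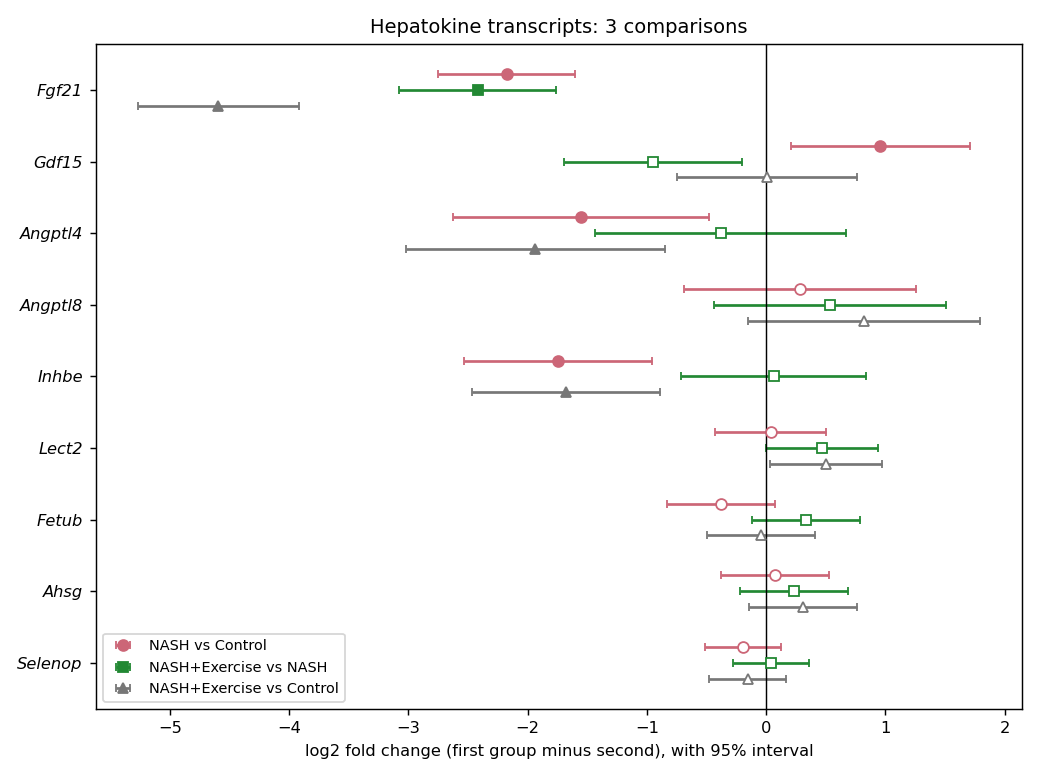
Log2 fold change with its 95% interval for each hepatokine gene (rows) in NASH against Control (red circles), NASH+Exercise against NASH (green squares) and NASH+Exercise against Control (grey triangles), each as the first group minus the second. Filled marks have an adjusted p under 0.05, and for Fgf21 all 3 marks are filled, at −2.17, −2.42 and −4.59.

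Of the 5 receptor genes for Fgf21 (Fgfr1 to Fgfr4 and Klb), Klb, which encodes the co-receptor beta-Klotho, fell in NASH. Its level was 26.7, 28.6 and 31.9 CPM in Control, 16.9, 15.7 and 19.6 CPM in NASH, and 13.5, 10.7 and 14.8 CPM in NASH+Exercise. Neither step overlapped, so hormone and co-receptor had the same order of groups. Of all genes, 49.6% did not overlap between NASH and Control, and 24.1% did not with training. The log2 fold change of Klb was −0.74 with the diet (SE 0.15, edgeR adjusted p 0.00312), −0.42 with training (SE 0.15, adjusted p 0.24) and −1.16 from Control to NASH+Exercise (SE 0.15, adjusted p 0.000341). Its fall with the diet ranged from −0.84 to −0.28 over the alternatives and passed the threshold in 16 of 19 settings. Fgfr2 and Fgfr3 rose in NASH, by 0.77 (SE 0.25, adjusted p 0.0336) and 0.99 (SE 0.27, adjusted p 0.0174) on the log2 scale. Fgfr1, the receptor through which Fgf21 mainly signals in fat, had a log2 fold change of 0.38 (adjusted p 0.399), and Fgfr4, the main FGF receptor of hepatocytes, of 0.12 (adjusted p 0.642). With training, 0 of the 5 passed edgeR's test, 1 had an unadjusted p under 0.05 and DESeq2 on 6 mice called 0. For all genes (13619 tested by edgeR) these counts were 22, 2078 and 521.

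PPAR alpha, the fatty acid sensor of the fasted liver, and genes known as its targets or as fasting genes made a list of 25 genes. The list is not limited to fat oxidation, and Fgf21 and Angptl4 are not among its genes. All 25 fell in NASH (median log2 fold change −1.67, range −4.49 to −0.90), where 14.4% of all genes fell. All 25 were lower in NASH+Exercise than in Control (median −1.82, range −8.30 to −0.77), where 9.58% of all genes were. The list was drawn with earlier results of these data known, so these counts are a description. In each of the 19 settings 23 to 25 of them fell in NASH and 0 rose. With training 0 of the 25 passed edgeR's test, 9 had an unadjusted p under 0.05 and DESeq2 on 6 mice called 4. For all genes (13619 tested by edgeR) the counts with training were 22, 2078 and 521. The median of the list with training was −0.33.

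Cyp4a14, a fatty acid hydroxylase, had 6184, 4083 and 8442 CPM in Control, 169, 126 and 803 CPM in NASH, and 19.8, 33.7 and 5.80 CPM in NASH+Exercise. Pdk4, the kinase that shuts off glucose oxidation in fasting, had 207, 110 and 87.2 CPM in Control, 6.94, 2.25 and 8.88 CPM in NASH, and 1.70, 1.65 and 1.02 CPM in NASH+Exercise. In both genes no group overlapped another, as in Fgf21. Over all genes the groups lay apart in 49.6% (NASH against Control), 24.1% (with training) and 38.6% (NASH+Exercise against Control). Cyp4a14 fell by 4.09 on the log2 scale with the diet (SE 0.84, edgeR adjusted p 0.00491), and its log2 fold change with training was −4.21 (SE 0.86, adjusted p 0.116). For Pdk4 these values were −4.49 (SE 0.51, adjusted p 0.000162) and −2.03 (SE 0.55, adjusted p 0.16). Ppara itself fell by 0.90 in NASH (SE 0.17, adjusted p 0.00206) and had a log2 fold change of 0.13 with training (SE 0.17, adjusted p 0.768). Creb3l3, a liver membrane-bound factor known to work with PPAR alpha on Fgf21, fell by 1.01 in NASH (SE 0.16, adjusted p 0.000747) and had 0.01 with training (SE 0.16, adjusted p 0.984).

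The other arm of Fgf21 control is the integrated stress response under ATF4. Of 23 tested genes of that list, 8 rose and 4 fell in NASH (median log2 fold change 0.03), where 21.2% of all genes rose and 14.4% fell. In NASH+Exercise against Control 7 were higher and 4 lower (median 0.16), where 15.6% of all genes were higher and 9.58% lower. With training 0 passed edgeR's test, 3 had an unadjusted p under 0.05 and DESeq2 on 6 mice called 0 (median −0.32). The counts for all genes (13619 tested by edgeR) were 22, 2078 and 521. Atf4 itself had a log2 fold change of −0.32 in NASH (SE 0.18, adjusted p 0.19) and 0.21 with training (SE 0.18, adjusted p 0.604). Ddit3, which encodes the stress factor CHOP, had 0.62 in NASH (SE 0.28, adjusted p 0.114) and was higher in NASH+Exercise than in Control by 0.87 (SE 0.28, adjusted p 0.0466), a call made in 11 of 19 settings.

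Among its targets, Chac1, which degrades glutathione, had 1.82, 1.45 and 0.816 CPM in Control, 24.4, 2.87 and 6.50 CPM in NASH, and 9.17, 11.8 and 17.8 CPM in NASH+Exercise. It rose by 3.04 on the log2 scale in NASH (SE 0.76, edgeR adjusted p 0.0123). Slc7a11, the cystine importer, had at most 0.0537 CPM in Control mice, 1.25 to 2.25 CPM in NASH mice and 0.39 to 1.13 CPM in trained mice. Asns, asparagine synthetase, fell instead, by 1.41 (SE 0.39, adjusted p 0.0178), and Cth, which makes cysteine, fell by 1.66 (SE 0.15, adjusted p 2.51e-05). Vldlr, the lipoprotein receptor that ATF4 can raise, was lower in NASH+Exercise than in Control by a log2 fold change of −1.97 (SE 0.46, adjusted p 0.00993), at 0.33 to 0.786 CPM against 1.06 to 3.11 CPM. Of the 20 genes of this list with a promoter window, 7 held TGATGNAA in any of their windows. The 3.97% above counts single windows, so it is not a like share. The list was also drawn up as ATF4 and CHOP targets, so these matches are a description. Of these 7 genes 4 rose and 1 fell in NASH, where 21.2% of all genes rose and 14.4% fell.

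**Figure D3:**
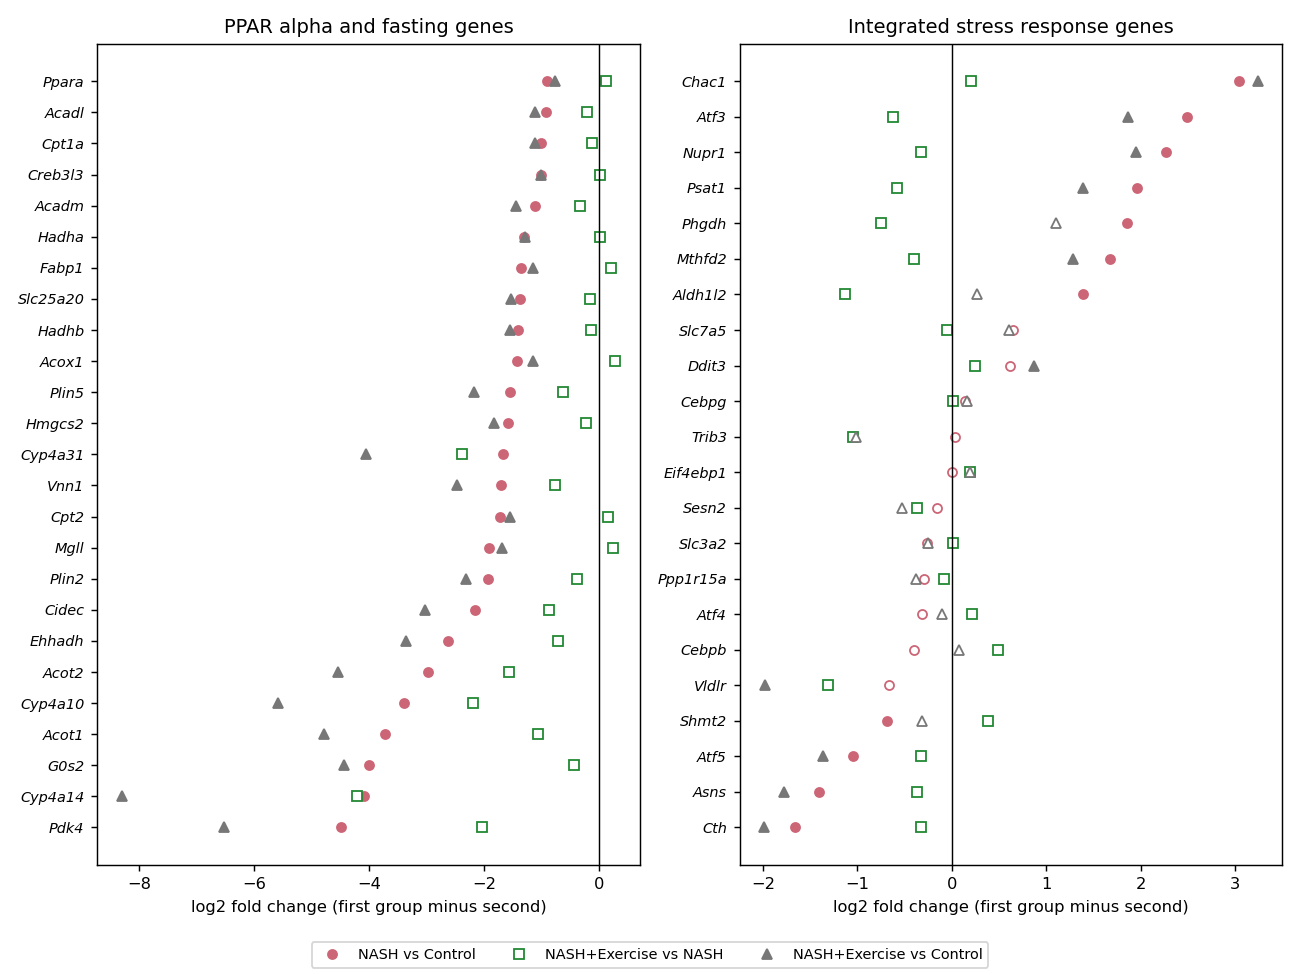
Log2 fold changes (first group minus second) of the 25 PPAR alpha and fasting genes (left) and of 22 integrated stress response genes (right, Slc7a11 left out because Control held at most 3 counts), in NASH against Control (circles), NASH+Exercise against NASH (squares) and NASH+Exercise against Control (triangles), filled where the adjusted p is under 0.05. All filled marks on the left lie below 0, down to −8.30 for Cyp4a14, while those on the right lie on both sides.

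Angptl4 (chr17:33774900-33781575, minus strand) is raised by fasting through the PPAR receptors, and its product inactivates lipoprotein lipase. It had 388, 472 and 295 CPM in Control, 148, 67.1 and 177 CPM in NASH, and 42.6, 99.4 and 160 CPM in NASH+Exercise. Control lay above all 6 mice on the Ath diet, and the NASH and NASH+Exercise mice overlapped. Angptl4 fell from 385 ± 88.6 to 131 ± 57.1 CPM in NASH (SD, n = 3 each), a log2 fold change of −1.56 (SE 0.48, 95% interval −2.63 to −0.48, edgeR adjusted p 0.0304). It was lower in NASH+Exercise than in Control by −1.94 (SE 0.48, adjusted p 0.0168), and with training its log2 fold change was −0.38 (SE 0.47, 95% interval −1.43 to 0.67, adjusted p 0.751).

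The call for Angptl4 in NASH was lost without Control replicate 3 (adjusted p 0.067), Control replicate 4 (0.104), NASH replicate 5 (0.0583) or NASH replicate 19 (0.0891), and without the filter on low counts (0.0621), with log2 fold changes between −1.84 and −1.20 over all settings. The lower level in NASH+Exercise than in Control had an adjusted p of 0.0685 without Control replicate 4.

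Angptl8 (chr9:21835510-21837347, plus strand) is a feeding hormone that restrains lipoprotein lipase. It lies within the span of Dock6 on the other strand, and the sources used here do not say whether counting used strand. The estimated count of Angptl8 was not whole in 0 of 9 mice, and sharing of reads between the 2 genes was not tested. It had 33.9, 27.5 and 61.5 CPM in Control, 28.4, 63.2 and 58.2 CPM in NASH, and 36.6, 94.3 and 86.2 CPM in NASH+Exercise. All 3 groups overlapped, and the mice of a group differed by more than the groups. The log2 fold change was 0.28 in NASH (95% interval −0.69 to 1.26, edgeR adjusted p 0.651), 0.53 with training (−0.43 to 1.503, adjusted p 0.596) and 0.82 from Control to NASH+Exercise (−0.16 to 1.80, adjusted p 0.208).

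Around these inhibitors, the list of 11 lipoprotein lipase genes had 1 member that rose and 5 that fell in NASH (median log2 fold change −0.52). Of all genes, 21.2% rose and 14.4% fell there. In NASH+Exercise against Control 1 was higher and 3 lower (median −0.21), where 15.6% of all genes were higher and 9.58% lower. With training 0 of 11 passed edgeR's test, 2 had an unadjusted p under 0.05 and DESeq2 on 6 mice called 1. The counts for all genes (13619 tested by edgeR) were 22, 2078 and 521. Lpl, the lipase itself, is little made by adult hepatocytes and more by macrophages and fat cells. It had 10.9, 7.34 and 17.5 CPM in Control, 221, 371 and 165 CPM in NASH, and 150, 161 and 85.7 CPM in NASH+Exercise. Both diet groups lay far above Control, and Lpl rose by 4.40 on the log2 scale in NASH (SE 0.43, edgeR adjusted p 6.81e-05), with −0.93 for training (SE 0.37, adjusted p 0.281). Of the 12 macrophage markers, 11 rose in NASH as Lpl did, where 21.2% of all genes rose. The part of macrophages in the result was not tested. The 5 fat cell markers with a row summed to 3.28 to 4.13 CPM in Control mice, 5.77 to 9.31 CPM in NASH mice and 6.09 to 8.12 CPM in trained mice. Of these Fabp4, which macrophages also express, was the 1 with enough reads to be tested and rose by 1.25 in NASH (SE 0.23, adjusted p 0.00211), and Adipoq and Plin1 were at 0 in all 6 mice on the diet. The part of fat cells in the result was not tested. Lipg, endothelial lipase, fell by 2.51 (SE 0.47, adjusted p 0.00265).

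Inhbe (chr10:127349402-127351848, minus strand) encodes the beta E subunit of activin E, which is made almost wholly by liver. An antisense gene, Gm47200, overlaps Inhbe. The estimated count of Inhbe was not whole in 7 of 9 mice, so the split of shared reads is uncertain. Whether the overlap had a part in this was not tested. The level of Inhbe was 94.7, 114 and 218 CPM in Control, 24.6, 53.2 and 49.7 CPM in NASH, and 39.8, 42.7 and 50.5 CPM in NASH+Exercise. Control lay above all mice on the diet, with Control replicate 29 well above the other 2, and the trained mice were within the range of the NASH mice. The log2 fold change was −1.74 in NASH (SE 0.35, 95% interval −2.53 to −0.95, edgeR adjusted p 0.00412) and −1.68 from Control to NASH+Exercise (SE 0.35, adjusted p 0.00677). With training it was 0.06 (SE 0.35, 95% interval −0.71 to 0.84, adjusted p 0.952), and the sign of this value turned under other scalings. Both falls against Control passed the threshold in every alternative, with an adjusted p of at most 0.024 and 0.0334.

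Inhbc, the neighbour of Inhbe with the same liver-restricted expression, had 124, 153 and 122 CPM in Control, 65.4, 56.3 and 95.8 CPM in NASH, and 81.6, 93.6 and 89.2 CPM in NASH+Exercise. It too was higher in each Control mouse than in any mouse on the diet, and fell by 0.88 in NASH (SE 0.19, edgeR adjusted p 0.00449). The subunits of activins A and B, Inhba (0.72, adjusted p 0.11) and Inhbb (0.61, adjusted p 0.475), did not pass the test in NASH, at 5.70 CPM or less in every mouse for Inhbb. Of 11 tested activin family genes, 3 rose and 2 fell in NASH, where 21.2% of all genes rose and 14.4% fell. The 3 that rose were the follistatin-like genes Fstl1, by 2.45 (SE 0.22, adjusted p 2.42e-05), and Fstl3, an activin antagonist, by 2.06 (SE 0.60, adjusted p 0.0218), and the receptor Acvr1, by 0.52 (SE 0.18, adjusted p 0.042), which was called in 10 of 19 settings. Fstl1 is made by fibroblast-like cells, and the 10 stellate cell markers summed to 304 to 471 CPM in Control and 526 to 687 CPM in NASH, whose part in the result was not tested. With training 0 of 11 passed edgeR's test, 3 had an unadjusted p under 0.05 and DESeq2 on 6 mice called 1. For all genes (13619 tested by edgeR) these counts were 22, 2078 and 521.

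Gdf15 (chr8:70629393-70632470, minus strand) is the member whose levels pointed the other way. It had 17.0, 11.2 and 15.6 CPM in Control, 44.2, 21.3 and 19.6 CPM in NASH, and 15.1, 18.6 and 10.2 CPM in NASH+Exercise. All NASH mice lay above all mice of the other 2 groups, but the lowest NASH mouse exceeded the highest trained mouse only by 19.6 against 18.6 CPM, and the NASH mean rested on replicate 5. Gdf15 rose from 14.6 ± 3.04 to 28.4 ± 13.8 CPM in NASH (SD, n = 3 each), a log2 fold change of 0.96 (SE 0.33, 95% interval 0.21 to 1.71, edgeR adjusted p 0.0493). With training it was −0.95 (SE 0.33, 95% interval −1.70 to −0.21), which did not pass the test (adjusted p 0.236, and 0.0764 or more in every alternative). NASH+Exercise and Control had the same mean to within 0.01 on the log2 scale (SE 0.34, 95% interval −0.75 to 0.76, adjusted p 0.992).

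The rise of Gdf15 in NASH was called narrowly. Without NASH replicate 5 the log2 fold change was 0.48 (adjusted p 0.18). The call was also lost without Control replicate 3 (0.076), Control replicate 4 (0.158), Control replicate 29 (0.0977), NASH replicate 19 (0.0512), NASH+Exercise replicate 8 (0.0682) or NASH+Exercise replicate 18 (0.0514). With all mice of both groups kept, it was lost with DESeq2 size factors (0.0509), without the filter on low counts (0.0768) and where 6 mice were fitted (0.0554). NASH replicate 5 had the highest Chac1 of all mice as well, at 24.4 CPM. Some other integrated stress response genes peaked in other mice, such as Atf3 in NASH replicate 19 (10.9 CPM) and Ddit3 in NASH+Exercise replicate 18 (20.9 CPM).

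Lect2 (chr13:56529734-56548559, minus strand) encodes a chemotactic hormone and overlaps Fbxl21 on the other strand. It had 54.8, 52.4 and 39.5 CPM in Control, 37.1, 63.1 and 50.2 CPM in NASH, and 58.9, 64.6 and 84.4 CPM in NASH+Exercise. The trained mice lay above all Control mice, and the other groups overlapped. Its log2 fold change was 0.04 in NASH (95% interval −0.43 to 0.50, edgeR adjusted p 0.914), 0.47 with training (−0.00 to 0.93, adjusted p 0.328) and 0.50 from Control to NASH+Exercise (0.03 to 0.97, adjusted p 0.111). Receptors described for Lect2 and Gdf15 made a list of 5 genes. Of the 3 with enough reads, Cd209a rose in NASH by 2.09 (SE 0.42, adjusted p 0.00311) at under 1 CPM in every mouse, and Met and Tie1 did not pass the test.

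The fetuins share the cystatin fold and lie side by side on chromosome 16, Ahsg at chr16:22892015-22899451 and Fetub at chr16:22918382-22939768, both on the plus strand. The antisense gene Gm30505 overlaps Ahsg, whose estimated count was not whole in 0 of 9 mice, and sharing of reads was not tested here either. Ahsg, the fetuin that binds calcium phosphate and can inhibit the insulin receptor, had 6791, 10478 and 7583 CPM in Control, 9520, 8053 and 8547 CPM in NASH, and 9161, 9586 and 11973 CPM in NASH+Exercise. Fetub had 854, 1218 and 790 CPM in Control, 811, 593 and 799 CPM in NASH, and 804, 1075 and 898 CPM in NASH+Exercise. Every pair of groups overlapped in both genes. In Ahsg the log2 fold change was 0.07 in NASH (SE 0.20, edgeR adjusted p 0.822) and 0.23 with training (SE 0.20, adjusted p 0.629), and in NASH it was 0.44 (adjusted p 0.025) where counts were scaled by library size alone and 0.54 (adjusted p 0.00353 and 0.00322) in limma on the TPM scales. In Fetub it was −0.38 (SE 0.21, adjusted p 0.18) and 0.33 (SE 0.21, adjusted p 0.465), with a small positive value in NASH on the TPM scale. The other liver genes of this cystatin family, Kng1, Kng2 (kininogens) and Hrg (histidine-rich glycoprotein), gave −0.17, 0.14 and −0.13 in NASH. None of the 5 changed in any comparison by edgeR. At an unadjusted p under 0.05 the count was 0 in each, and DESeq2 on 6 mice called 0, 1 and 0. For all genes (13619 tested by edgeR) the unadjusted counts were 6170, 2078 and 4943, and DESeq2 called 4501, 521 and 3014.

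Selenop (chr15:3270767-3280510, plus strand, overlapping Ccdc152 on the other strand) encodes the plasma carrier that delivers selenium from the liver. It had 6688, 6950 and 6886 CPM in Control, 6322, 5551 and 6048 CPM in NASH, and 6179, 6065 and 6181 CPM in NASH+Exercise. In CPM it varied less between mice than any other member, with a coefficient of variation of 1.995, 6.54 and 1.08% in the 3 groups. In TPM these were 13.5, 3.71 and 11.6%, and other members varied less in Control (Fetub 9.69%) and in NASH+Exercise (Inhbe 4.07%). Control lay above all mice on the diet, yet the log2 fold change was −0.20 in NASH (SE 0.14, 95% interval −0.52 to 0.12, edgeR adjusted p 0.326), and it became 0.15 with library size alone. Groups without overlap were common, as 5 of 9 members showed this in NASH against Control, where 49.6% of all genes did, 2 of 9 with training (24.1% of all genes) and 5 of 9 in NASH+Exercise against Control (38.6%).

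Of the 27 genes of selenoproteins and their synthesis, 4 rose and 6 fell in NASH, where 21.2% of all genes rose and 14.4% fell. In NASH+Exercise against Control 3 were higher and 4 lower, where 15.6% of all genes were higher and 9.58% lower. Selenon, a membrane protein of the endoplasmic reticulum, rose by 2.12 (SE 0.22, edgeR adjusted p 4.97e-05), Gpx3, the plasma glutathione peroxidase, by 1.60 (SE 0.22, adjusted p 0.000369), and Lrp8, a receptor for the Selenop protein, by 2.33 (SE 0.57, adjusted p 0.0096) at under 1 CPM. Txnrd2, the mitochondrial thioredoxin reductase, fell by 0.86 (SE 0.17, adjusted p 0.00258), and Eefsec, the elongation factor that inserts selenocysteine, fell by 0.70 (SE 0.14, adjusted p 0.00377). Gpx1, the main hepatic glutathione peroxidase, had −0.40 in NASH (adjusted p 0.135) and 0.48 with training (adjusted p 0.275). With training 0 of 27 passed edgeR's test, 9 had an unadjusted p under 0.05 and DESeq2 on 6 mice called 2. The counts for all genes (13619 tested by edgeR) were 22, 2078 and 521.

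Levels of different genes were compared per transcript length, as TPM, which divides counts by length before scaling each library to a fixed sum. In Control the order was Ahsg (8103 TPM), Selenop (5012), Fetub (932), Angptl4 (294), Inhbe (102), Lect2 (83.7), Angptl8 (74.8), Fgf21 (69.4) and Gdf15 (20.4). The first 4 were apart from their neighbours in every mouse, Inhbe to Fgf21 overlapped, and Gdf15 was apart below them. In NASH the top 3 kept their places at 11719, 5873 and 984 TPM, Angptl4, Angptl8 and Lect2 overlapped at 135, 119 and 118 TPM, and Gdf15, Inhbe and Fgf21 overlapped neighbour by neighbour at 51.5, 40.0 and 20.2 TPM. In NASH+Exercise Ahsg, Selenop and Fetub led again at 11049, 4929 and 1019 TPM, Angptl8, Lect2 and Angptl4 overlapped at 135, 130 and 82.3 TPM, and Inhbe (33.5), Gdf15 (22.2) and Fgf21 (3.15) were each apart.

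**Figure D4:**
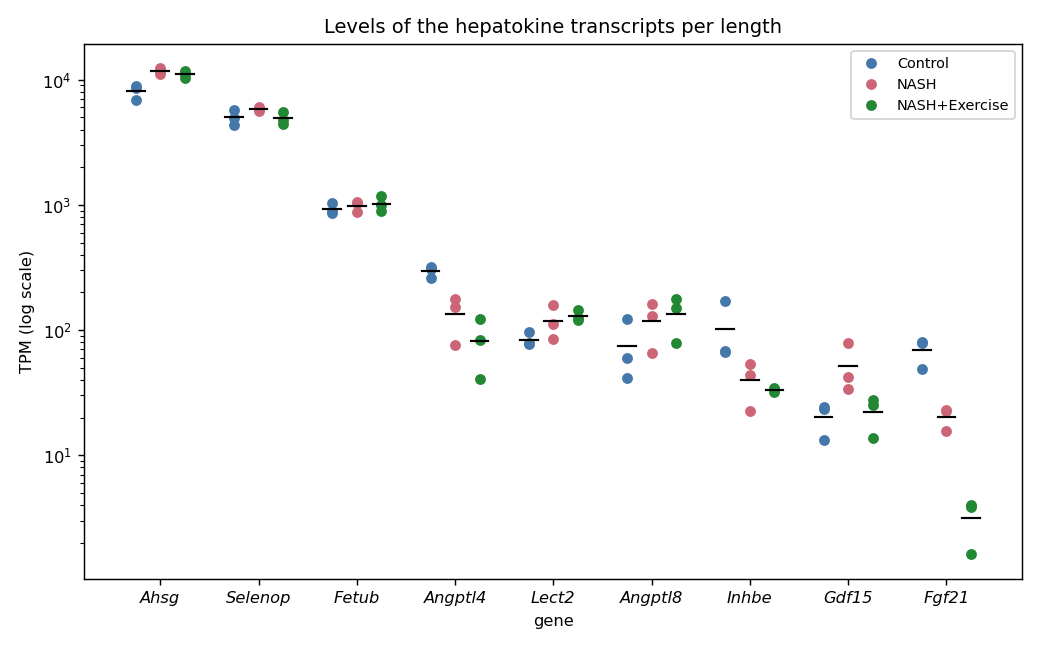
TPM (log scale) of the 9 hepatokine genes in each mouse (points) with the mean of 3 mice (bar), for Control, NASH and NASH+Exercise from left to right within a gene. Ahsg, Selenop and Fetub average 932 TPM or more in each group, while Fgf21 covers the widest range, from 69.4 TPM in Control to 3.15 TPM in NASH+Exercise on average.

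Ratios of 2 members within a mouse do not depend on the scaling between libraries. Fgf21 over Gdf15, in TPM, was 3.43, 3.64 and 3.26 in Control, 0.285, 0.369 and 0.676 in NASH, and 0.152, 0.144 and 0.117 in NASH+Exercise. The 3 groups were apart, and Control mice agreed closely (3.44 ± 0.190, SD, n = 3). Angptl8 over Angptl4, the fed over the fasted angiopoietin-like hormone, was 0.197, 0.131 and 0.470 in Control, 0.431, 2.12 and 0.739 in NASH, and 1.94, 2.14 and 1.22 in NASH+Exercise. Here NASH overlapped both other groups, and Control and NASH+Exercise were apart. Inhbe over Inhbc was 0.690 to 1.64 in Control mice, 0.346 to 0.869 in NASH mice and 0.420 to 0.522 in trained mice, and Ahsg over Fetub was 7.90 to 9.59, 10.8 to 13.5 and 8.81 to 13.1. A ratio shows unequal change and does not tell which gene moved.

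**Figure D5:**
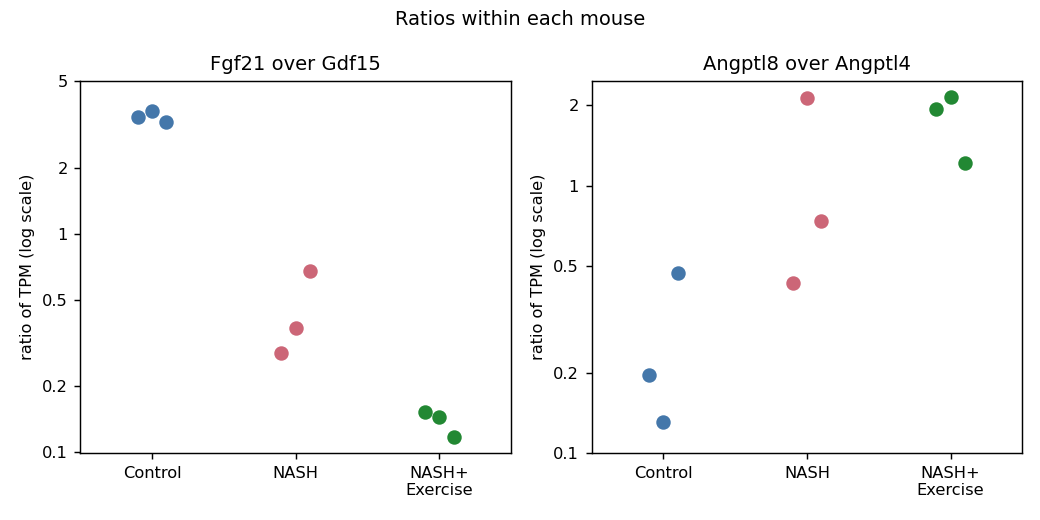
Ratio of TPM within each mouse on a log scale, for Fgf21 over Gdf15 (left) and Angptl8 over Angptl4 (right), with 1 point per mouse and 3 mice per group. Fgf21 over Gdf15 falls from 3.26 to 3.64 in Control to 0.117 to 0.152 in NASH+Exercise, and Angptl8 over Angptl4 is 0.131 to 0.470 in Control and 1.22 to 2.14 in NASH+Exercise.

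The genes most like each member across the 9 mice were found by Pearson's r of log2 CPM over all tested genes, which is a description since the mice share 3 groups, diets and library scaling. For Fgf21 they were Cyp4a14 (r = 0.987), Cyp4a31 (0.980), the organic anion transporter Slco1a4 (0.974), Ugt1a9 (0.974) and Palmd (0.973). Cyp4a14 and Cyp4a31 belong to the same cluster of fatty acid hydroxylases, and Ugt1a9 shares exons with the other Ugt1a genes, so reads may have been divided among copies in both cases. The closest gene was Ephx1 for Angptl4 (0.976), Atl2 for Inhbe (0.977), Wdfy3 for Gdf15 (0.974), Pde8a for Selenop (0.979), Tfr2 for Fetub (0.984), Clptm1l for Ahsg (0.989), Mpi for Lect2 (0.956) and Zfp846 for Angptl8 (0.912).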

How the data were processed

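Liver mRNA of 9 mice was sequenced, 1 library each. The authors deposited for every gene an estimated count, which is not normalized and was rounded here for the tests, together with TPM and FPKM values. The submitters' processing notes name HISAT2 2.1.0, Bowtie2 2.2.5, RSEM 1.2.8 and GRCm38.p6. Which role each tool had, and whether counting used strand, is not given in the sources used here. The table of 1 mouse also holds those of the others (428304 repeated values, 0 differing). Groups came from the sample titles.

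Counts were tested with edgeR 4.0.16 in R 4.3.3, on 13619 genes passing filterByExpr, with TMM scaling and the robust option of the quasi-likelihood fit. Group was the only model term, and all 9 mice entered (6 residual degrees of freedom). The 3 comparisons were NASH against Control, NASH+Exercise against NASH and NASH+Exercise against Control. Adjusted p-values are Benjamini-Hochberg over all tested genes. TPM was used for levels between genes and in limma 3.58.1 on log2(TPM + 1) or log2(TPM + 0.1). FPKM, which within a library is proportional to TPM, was tabulated for the members and entered no test. DESeq2 1.42.0 and the other alternatives are given at the end, and the tests were tried on simulated data. Each library held 20086004 or more counts, and 3 mice in a group limit the precision.

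The members and gene lists were chosen with earlier results of these data known. Named genes were the members, fixed partners (1 is not reported here), the 2 called list genes with the largest change per direction and comparison, and the genes most correlated with a member. In all, 11 list genes had no row.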

Additional observations from a re-analysis of the deposited data

How the results depend on the processing

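Besides edgeR with TMM, each value was recomputed in 18 alternatives, of which 9 left out a mouse. Over the 9 members these gave 421 values with the same direction and side of the threshold, 36 with the opposite sign, 21 no longer past the threshold and 8 newly past it. The cause was not tested where none is given.

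The count of members changed in NASH against Control was 4, and 2 without the filter on low counts, where more genes entered the adjustment. It was 5 with library size alone and on either TPM scale, and 3 with DESeq2 size factors or 6 mice fitted. It ranged from 2 to 4 when a mouse was left out, with 2 without Control replicate 3 or 4 or NASH replicate 5 or 19. In NASH+Exercise against NASH the count of 1 became 0 without Control replicate 3, NASH replicate 5 or 20, or NASH+Exercise replicate 18 or 22 (range 0 to 1), and the log2 fold change of Fgf21 then ranged from −2.65 to −2.15. In NASH+Exercise against Control the count of 3 became 5 on either TPM scale, where Ahsg and Lect2 also passed. Over all settings their log2 fold change was 0.18 to 0.53 and 0.34 to 0.65. The call for Angptl4 in this comparison was lost without Control replicate 4. The pathway lists had 0 genes changed with training in edgeR, 8 in DESeq2 on 9 mice, 12 in DESeq2 on 6 mice and 7 in limma on log2(TPM + 1). Over all genes DESeq2 called 309 (9 mice) or 521 (6 mice) with training against 22, and limma on log2(TPM + 1) 305.

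Library size alone moved the median over all genes, on the log2 scale, to 0.36 in NASH against Control, to −0.23 with training and to 0.15 in NASH+Exercise against Control. Opposite signs, all of values that edgeR with TMM did not call, were 0.078 and 0.0781 for Fetub in NASH on the TPM scales and 0.15 (library size) and 0.24 (both TPM scales) for Selenop, −0.00226, −0.0052 and −0.00416 for Lect2 in NASH without the filter and in DESeq2 on 9 and 6 mice, −0.0853 and −0.0853 for Ahsg with training on the TPM scales, −0.16 (library size), −0.16 and −0.17 (TPM) for Inhbe and −0.16, −0.26 and −0.26 for Selenop. From Control to NASH+Exercise, Gdf15 gave −0.0126 with DESeq2 size factors, −0.00611 without the filter and −0.0116 and −0.0179 in DESeq2, and Fetub 0.12 with library size and both TPM scales. Leaving out a mouse gave −0.0576 to 0.26 for Ahsg and −0.20 to 0.21 for Lect2 in NASH, −0.21 to 0.28 for Inhbe with training, and −0.21 to 0.21 for Gdf15 and −0.19 to 0.19 for Fetub from Control to NASH+Exercise.

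Of 19 settings, the rise in NASH was called in 15 for Fgfr2, 17 for Fgfr3 and Chac1 and 16 for Fstl3, the fall in NASH in 13 for Asns and 16 for Hamp, and the lower level in NASH+Exercise than in Control in 17 for Vldlr and 14 for Igfbp1.

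No paired analysis was possible because the groups share no replicate numbers. Depth and the spread between mice were not compared as limits, and Fgf21 rests on as few as 21 counts in a trained mouse.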

Other observations

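Among 25 other genes for proteins the liver releases as signals, 3 rose and 7 fell in NASH, where 21.2% of all genes rose and 14.4% fell. In NASH+Exercise against Control 3 were higher and 6 lower, where 15.6% of all genes were higher and 9.58% lower. Lcn2, the iron-siderophore binding protein lipocalin 2, had 6.39, 3.17 and 4.03 CPM in Control, 340, 609 and 329 CPM in NASH, and 264, 557 and 222 CPM in NASH+Exercise. It rose by 6.55 on the log2 scale in NASH (SE 0.50, edgeR adjusted p 1.66e-05). The neutrophil markers, cells that also hold Lcn2, summed to 11.3 to 16.0 CPM in Control, 45.5 to 51.0 CPM in NASH and 32.8 to 42.8 CPM in NASH+Exercise, and their part in the result was not tested. Fgl1, a fibrinogen-like hepatocyte protein, rose by 1.37 (SE 0.31, adjusted p 0.00698), with 161 to 252 CPM in Control mice and 398 to 564 CPM in NASH mice.

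Igfals, which stabilizes circulating IGF1, fell by 1.25 in NASH (SE 0.21, adjusted p 0.000949), and Hamp, the iron hormone hepcidin, fell by 1.21 (SE 0.30, adjusted p 0.00973). Their log2 fold changes with training were 0.54 (SE 0.20, adjusted p 0.255) and 0.62 (SE 0.29, adjusted p 0.345). Igfbp1, a fasting-induced IGF binding protein, had 135, 152 and 141 CPM in Control, 186, 29.3 and 103 CPM in NASH, and 37.0, 21.4 and 42.9 CPM in NASH+Exercise. It overlapped between Control and NASH and was lower in NASH+Exercise than in Control by a log2 fold change of −2.08 (SE 0.54, edgeR adjusted p 0.0205). With training 0 of the 25 passed edgeR's test, 5 had an unadjusted p under 0.05 and DESeq2 on 6 mice called 3. For all genes (13619 tested by edgeR) these counts were 22, 2078 and 521.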
